A study of Mus musculus with 12 samples.

Results

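The trimethylation of lysine 27 of histone H3 (H3K27me3) was compared between doxorubicin-treated and mock-treated wild-type mouse embryonic fibroblasts (MEFs), using the peak lists of the 2 chromatin immunoprecipitation (ChIP-seq) libraries that the series holds for this mark and genotype. Both libraries came from primary MEFs of a hybrid 129/B6 background that were lincRNA-p21+/+. Both received the same H3K27me3 antibody and differed in treatment alone, which was Mock or 24 h of doxorubicin. Doxorubicin is a drug that breaks DNA, and its dose was labelled 0.5 mM. The series holds 12 samples, with matching lincRNA-p21 knockout (KO) cells, libraries for trimethylated lysine 4 (H3K4me3) and input libraries. With 1 library per condition no spread between cultures could be measured, no test was made, and every difference below includes any difference in read depth or enrichment between the libraries. The labels do not say how many embryos the cultures came from.

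The members were every peak of both lists, 16160 in mock and 17517 in doxorubicin, or 33677 of the 128880 peaks in the 8 lists of the series. Peaks of a list less than 3 kb apart were joined into domains, which gave 10259 domains in mock and 10286 in doxorubicin. Just inside the joining distance, in the 500 bp below it, lay 415 mock and 464 doxorubicin gaps, and in the 500 bp above it 365 and 395. Each peak has a score, given by the file headers as minus 10 times the log10 of its p-value, and the lowest was 80.01 in both lists. The lists carry positions on the mouse build mm9 and no gene names, so that fibroblast marker genes could not be looked up.

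H3K27me3 is laid down by Polycomb repressive complex 2, whose catalytic subunit is Ezh2 or Ezh1. The complex also binds the mark it makes, through its subunit Eed, and can thereby extend it along the chromatin, so that the mark forms broad domains over silent genes. The best-known domains in differentiated cells such as fibroblasts cover developmental regulators and the Hox gene clusters, which record the position of a cell along the body axis. Many such promoters also carry H3K4me3, the mark of promoters in use or ready for use, in a combination called bivalent. In the RefSeq table of build GRCm38.p6 the Hoxa, Hoxb, Hoxc and Hoxd genes lie on chromosomes 6, 11, 15 and 2. That table was used for chromosome names only, and whether a domain below holds a Hox gene was not determined from these files.

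By an overlap of 1 bp, nearly all long H3K27me3 domains of either list met a domain of the other, and most domains without such a match were short. A long domain meets this rule more easily by its size, and the long domains differed in length and splitting, as given further on. Of the mock domains 33.3% (3419 of 10259, 95% interval 32.4 to 34.2) overlapped no doxorubicin domain by 1 bp and are called lost. Of the doxorubicin domains 30.4% (3124 of 10286, 29.5 to 31.3) overlapped no mock domain and are called gained. Lost and gained mean only that a domain is or is not listed. By the same rule, 32.4% of the KO mock domains (3185 of 9836) overlapped no KO doxorubicin domain. Of the KO doxorubicin domains 34.4% (3511 of 10193) overlapped no KO mock domain, so the shares were of like size and in the opposite order. Lists of the same treatment but different genotype overlapped no more than this. Of the WT mock domains 65.9% met a KO mock domain, and 66.7% a WT doxorubicin domain. Of the WT doxorubicin domains 65.7% met a KO doxorubicin domain, and 69.6% a WT mock domain. The intervals are exact binomial intervals that cover counting error over domains that are not independent of their neighbours. Of the 380 mock domains of 20 kb or more, 379 were found in doxorubicin, and of the 303 such doxorubicin domains 302 were found in mock. Of the mock domains under 2 kb, 36.2% (34.7 to 37.7) were found in doxorubicin, and of the doxorubicin domains under 2 kb 45.0% (43.6 to 46.4) were found in mock.

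Between these extremes the share of domains that were kept was higher at each step of length in both lists. It was 74.5% at 2 to 5 kb, 93.6% at 5 to 10 kb and 99.4% at 10 to 20 kb for mock domains, and 87.7%, 95.5% and 99.6% for doxorubicin domains. The share was also higher with the score of the domain's strongest peak. When the domains of a list were divided by that score into 4 groups of like size, 31.2% of the mock domains in the lowest group and 99.5% of those in the highest were kept. For doxorubicin domains these were 34.8% and 99.8%. Length and score were tied to each other, and within the lowest score group the kept share still ranged from 28.0% of mock domains under 2 kb to 69.4% of those of 5 to 10 kb. In the highest group it lay between 98.9% and 99.9% at every length with at least 20 mock domains.

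**Figure D1:**
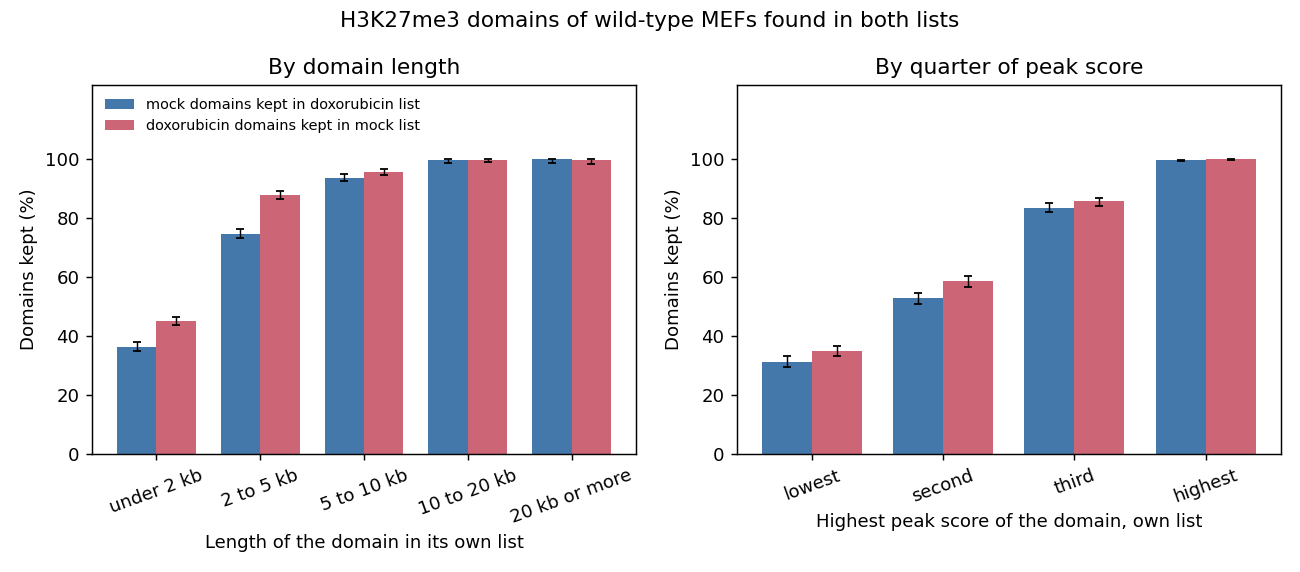
Share of domains (percent, vertical axis) that overlapped a domain of the other wild-type list, by domain length (left) and by the highest peak score of the domain in 4 groups of like size (right), for mock and doxorubicin domains; error bars are exact 95% binomial intervals over domains. The bars climb from 36.2% and 45.0% under 2 kb to 99.7% at 20 kb or more, and from 31.2% and 34.8% in the lowest score group to 99.5% and 99.8% in the highest.

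Lost and gained domains were small and weakly scored. The median lost domain was 1598 bp long with a highest score of 108.65, against 4250.5 bp and 273.595 for kept mock domains. The median gained domain was 1150 bp long with a highest score of 103.22, against 3458.5 bp and 234.23 for kept doxorubicin domains. A single peak made up 89.9% of lost and 90.9% of gained domains. Only 55 lost and 28 gained domains had a score of 300 or more. The median distance to the nearest domain of the other list was 13387 bp for lost and 12426 bp for gained domains. Within 3 kb of a domain of the other list lay 15.5% of the lost and 18.2% of the gained domains. Within 10 kb lay 43.7% and 45.4%, while 15.4% and 16.5% lay 100 kb or more away.

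The numbers of the peaks show how far a lost domain may have been called and not listed. The lists number their peaks in order along each chromosome and skip numbers, 10338 of 26498 (39.0%) in mock and 14905 of 32422 (46.0%) in doxorubicin. Where the listed peaks on either side of a place have consecutive numbers, no numbered peak can lie between them. That was so for 392 of the 3419 lost domains (11.5%) and for 597 of the 3124 gained domains (19.1%). For 88.2% of the lost and 80.4% of the gained domains at least 1 number was skipped between the flanking peaks, and a weak peak at the place itself could not be told apart from one elsewhere in the interval. For the other 10 lost and 16 gained domains the numbers could not be read this way. Of the 55 lost domains with a score of 300 or more, 4 lay where no number was skipped, and so did 4 of the 28 gained ones.

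Although the number of domains was nearly the same, the mock domains were longer. Their summed length was 53.4 Mb in mock and 45.3 Mb in doxorubicin, a difference of -8.10 Mb or -15.2%. The peaks alone, without the joined gaps, covered 48.0 Mb in mock and 39.0 Mb in doxorubicin (-18.8%). Median domain length was 2783 bp in mock and 2141.5 bp in doxorubicin, and domains of 10 kb or more numbered 1260 and 992. The doxorubicin peaks were more numerous per domain, with 1.70 peaks in a doxorubicin domain and 1.58 in a mock domain. In KO cells, whose libraries are separate, summed domain length was 42.0 Mb in both mock and doxorubicin, a difference of 0.0486 Mb, and the peaks alone covered 36.3 and 35.9 Mb, so that the WT mock list was the longest of the 4 lists of the mark.

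The 2 lists shared 34.7 Mb, which was 65.0% of the mock and 76.6% of the doxorubicin domain length. Of the 18.7 Mb found in mock alone, 6.78 Mb (36.3%) lay in lost domains, 9.65 Mb (51.6%) in the outer edges of kept domains and 2.27 Mb (12.1%) in gaps that opened inside kept domains. Of the 10.6 Mb found in doxorubicin alone, 4.67 Mb (44.0%) lay in gained domains, 5.11 Mb (48.2%) in outer edges and 0.826 Mb (7.79%) in inner gaps. The edges were therefore the largest single part in both directions. Of the kept mock domains 84.7% reached beyond the doxorubicin domains that met them. Of the kept doxorubicin domains 57.8% reached beyond the mock domains. Summed over both ends, the median reach was 787 bp for mock and 110 bp for doxorubicin domains. These medians were taken over all kept domains of a list, including those that did not reach beyond.

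**Figure D2:**
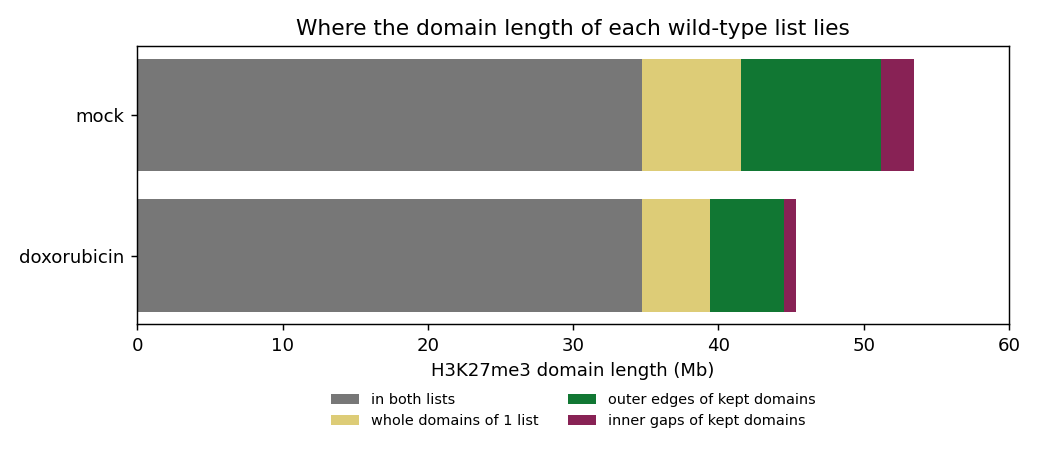
Summed H3K27me3 domain length (Mb, horizontal axis) of the mock and doxorubicin lists of wild-type cells, divided into length found in both lists, whole domains found in 1 list, outer edges of kept domains and inner gaps of kept domains. The shared 34.7 Mb is the same in both bars, and the mock bar has 9.65 Mb of edges against 5.11 Mb in the doxorubicin bar.

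Joining the domains of both lists where they overlapped gave 6645 regions with H3K27me3 in both conditions. In 4461 of them (67.1%) the doxorubicin length was the shorter, in 2183 the longer and in 1 equal. The median ratio of doxorubicin to mock length was 0.861, with quartiles of 0.606 and 1.09. A doxorubicin length at least 2-fold shorter was found in 1120 regions (16.9%) and one at least 2-fold longer in 392 (5.9%). The ratio came closer to 1 with size: by the mean length of both lists the median was 0.772 under 2 kb, 0.833 at 2 to 5 kb, 0.894 at 5 to 10 kb, 0.913 at 10 to 20 kb and 0.963 at 20 kb or more. Of the 365 regions in the last group, 64.4% were shorter with doxorubicin, 4 were at least 2-fold shorter and 0 at least 2-fold longer. In the 6397 regions shared by the KO lists the median ratio was 0.987 and 51.7% were shorter with doxorubicin.

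**Figure D3:**
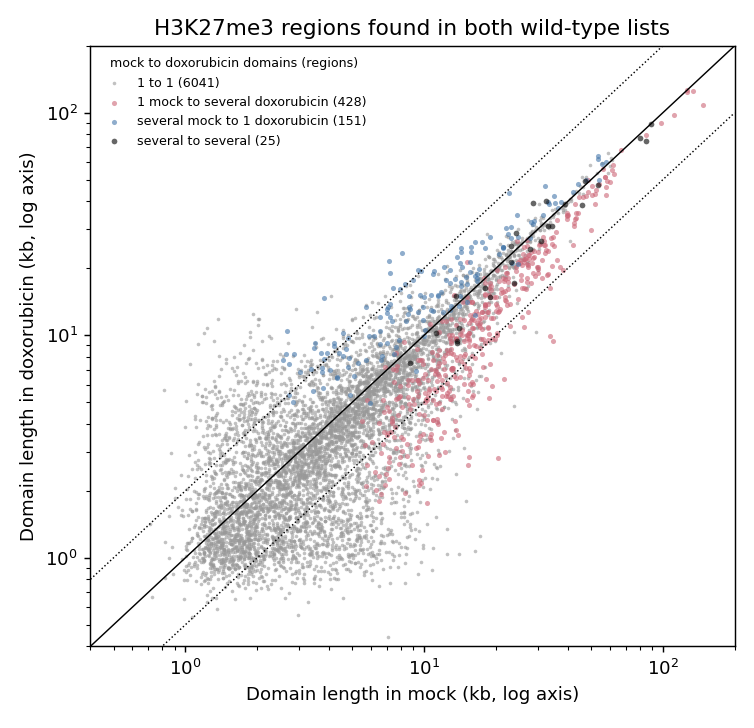
Domain length in mock (kb, horizontal log axis) against doxorubicin (kb, vertical log axis) for the 6645 regions found in both wild-type lists, coloured by how many mock and doxorubicin domains met in the region; the solid line marks equal length and the dotted lines a 2-fold difference. Regions of 1 mock to several doxorubicin domains (428) lie mostly below the line, those of several mock to 1 doxorubicin domain (151) mostly above it, and the longest regions lie close to it.

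Splitting was seen more often from mock to doxorubicin than the reverse. Of the 6840 kept mock domains, 455 (6.65%, 6.07 to 7.27) were met by 2 or more doxorubicin domains: 399 by 2, 52 by 3, 3 by 4 and 1 by 6. Of the 7162 kept doxorubicin domains, 177 (2.47%, 2.12 to 2.86) were met by 2 or more mock domains: 161 by 2, 14 by 3 and 2 by 4. In KO cells the 2 shares were 3.83% (255 of 6651) and 3.26% (218 of 6682). Since pieces had to lie at least 3 kb apart, the joining rule left short domains little or no room to be split, and the shares by length are a description only. Split domains made up 40.9% of the kept mock domains of 20 kb or more, 23.7% of those of 10 to 20 kb and 5.45% of those of 5 to 10 kb. The corresponding shares of doxorubicin domains met by several mock domains were 19.2%, 9.91% and 3.30%.

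The gaps between the pieces were short. The 517 gaps that opened in mock domains had a median of 3880 bp and a largest value of 12635 bp, and 76.4% were under 5 kb, not far above the joining distance. In 241 of them (46.6%) the doxorubicin peaks on either side had consecutive numbers, so that no unlisted peak can lie in the gap. In the other 276 a skipped number left room for one.

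The mock domain met by the most doxorubicin domains was also the longest of either list. It lay on chromosome 15 from 102726169 to 102874089, 147.921 kb long, and its peaks covered 144.2 kb in 10 peaks. Doxorubicin peaks covered 99.0 kb of it in 24 peaks. Its left part stayed whole, as an 83.5-kb doxorubicin domain from 102725996 to 102809494 with 12 peaks and a highest score of 1767.19. Over the same stretch WT mock had 3 peaks and a highest score of 548.55. The right part held 5 short pieces of 5.34, 7.82, 7.18, 1.39 and 3.23 kb, with highest scores of 132.99 to 200.6, separated by gaps of 3.51 to 11.2 kb. The 11.2-kb gap had 2 numbers skipped, the 10.4-kb gap 1 and the others none. In KO cells the left part was covered alike, with 80.7 kb of peaks in mock and 80.9 kb in doxorubicin. The highest scores in that part had the other order in KO, at 2370.91 in mock and 1474.16 in doxorubicin. Over the whole domain KO peaks covered 131.3 kb in mock but 83.5 kb with doxorubicin. H3K4me3 peaks within it numbered 12 in WT mock and 18 in WT doxorubicin, and 13 and 16 in KO. The whole H3K4me3 list was also the larger with doxorubicin, at 14897 and 16477 peaks in WT and 14326 and 15095 in KO.

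The other mock domains with the most pieces were smaller. On chromosome 2 from 28579997 to 28618071, mock peaks covered 26.2 kb and doxorubicin peaks 15.9 kb in 4 domains. On chromosome 12 from 113470762 to 113504356, 9 mock peaks covered 23.0 kb and 4 doxorubicin peaks, each a domain of its own, 9.95 kb. In this domain a gap of 10.4 kb held no skipped number. On chromosome 1 from 136564991 to 136591153 the covered lengths were 16.7 kb and 12.2 kb, again with 4 doxorubicin domains. On chromosome 8 from 125186385 to 125297642 the 3 pieces still covered 83.3 kb of the 96.4 kb in mock. In each of these 4 places KO doxorubicin also covered less than KO mock, at 5.86 against 12.0 kb, 4.80 against 10.6 kb, 8.57 against 9.03 kb and 71.4 against 87.5 kb in the order given.

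**Figure D4:**
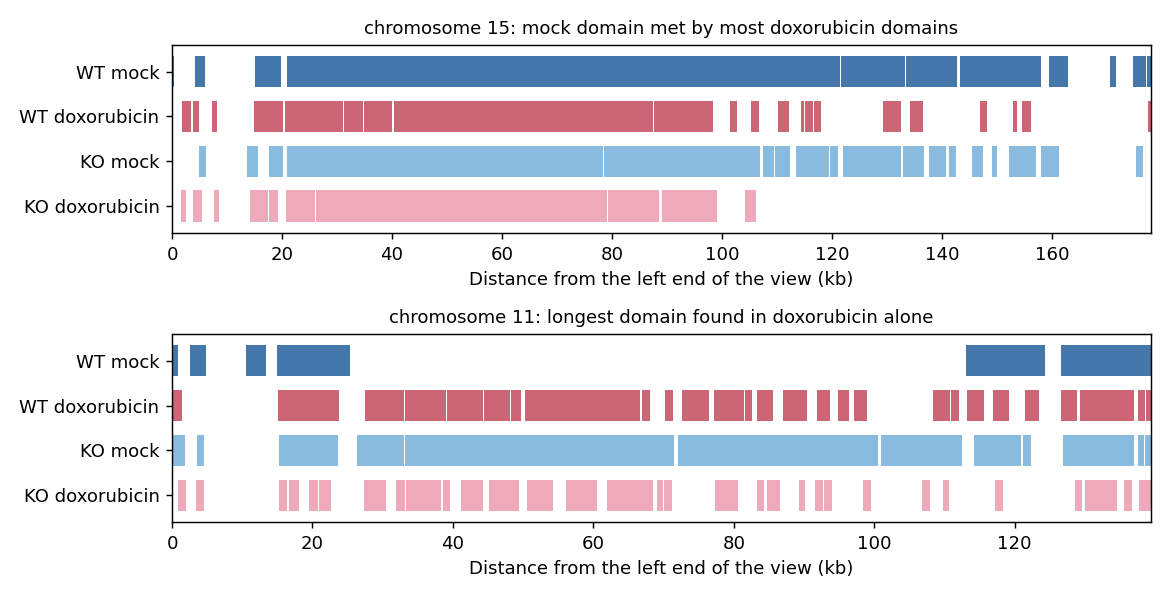
Listed H3K27me3 peaks (filled blocks) in the 4 libraries of the mark, along the chromosome 15 domain that was met by the most doxorubicin domains (upper) and the longest chromosome 11 domain found in doxorubicin alone (lower), plotted by distance in kb from the left end of the view. On chromosome 15 the left part is covered in the 4 libraries and the right part is broken up or empty in both doxorubicin libraries. On chromosome 11 the WT mock library alone has an empty stretch, of 87.7 kb.

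Among kept regions the largest differences in length stood beside this one. The chromosome 15 region was 147.921 kb in mock and 108.4 kb in doxorubicin. A region on chromosome 1 from 122486962 to 122522653 had 34.6 kb in mock and 9.45 kb in doxorubicin, in 3 pieces. Its highest score was 1097.75 in the mock list and 278.23 in the doxorubicin list, and its covered length in KO was 25.1 kb in mock and 2.69 kb in doxorubicin. A region on chromosome 3 from 103367200 to 103396674 remained a single domain but was 29.5 kb in mock and 10.3 kb in doxorubicin, with 22.3 and 10.5 kb covered in the KO lists. The remaining 2, on chromosome 12 from 113470762 and on chromosome 2 from 127305041 to 127355149, had 33.6 against 9.95 kb and 50.1 against 29.6 kb. In all 5 the KO doxorubicin list covered less than the KO mock list.

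Regions that were longer with doxorubicin were fewer and the differences smaller. On chromosome 3 from 96125651 to 96149328, 3 mock domains of 8.08 kb in all stood where doxorubicin had 1 domain of 23.6 kb. The covered lengths in KO were 6.08 kb in mock and 18.8 kb in doxorubicin, and 2 H3K4me3 peaks lay there in WT mock and 3 in WT doxorubicin. On chromosome 14 from 46997588 to 47019157, 3 mock domains of 7.11 kb stood against a single doxorubicin domain of 21.6 kb, and on chromosome 10 from 21163082 to 21182162, 7.22 kb against 19.1 kb. The KO lists had the same order at both, with 11.6 and 16.6 kb on chromosome 14 and 6.77 and 16.3 kb on chromosome 10. The other 2 did not. The region on chromosome 11 from 84380254 to 84424686 had 22.6 kb of domains in WT mock and 43.5 kb in WT doxorubicin. Its peaks alone covered 19.6 and 26.3 kb in WT, against 17.8 and 5.69 kb in KO, mock first. Its highest score was lower with doxorubicin in both genotypes, at 803.89 and 320.88 in WT and 747.14 and 397.79 in KO. The region on chromosome 2 from 164770901 to 164817874 had 32.2 and 47.0 kb of domains in WT. Its peaks alone covered 29.2 and 33.4 kb in WT, and 25.3 and 23.2 kb in KO.

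Doxorubicin domains met by the most mock domains overlapped this group. The chromosome 11 domain from 84380254 to 84423711 joined what were 4 mock domains, across mock gaps of 5.36, 10.6 and 3.602 kb with 0, 4 and 2 numbers skipped. A second on chromosome 11, from 83492853 to 83523281, also met 4 mock domains, with 17.5 kb covered in mock and 24.9 kb in doxorubicin. The longest, on chromosome 9 from 107252301 to 107316057, met 3, and its covered length was 50.6 kb in mock and 48.8 kb in doxorubicin. Here the count of domains differed and the covered length hardly did. The domain on chromosome 17 from 46566199 to 46598916 likewise met 3 mock domains and had 24.1 and 23.9 kb covered.

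The 5 longest lost domains held 2 to 5 peaks each. The longest lay on chromosome 5 from 112461583 to 112481920, 20.3 kb long with 5 peaks that covered 15.0 kb and a highest score of 406.73. The nearest doxorubicin domain was 2877 bp away, 4 peak numbers were skipped in the doxorubicin list there, and the KO lists had 5.87 kb (mock) and 1.32 kb (doxorubicin). On chromosome 3 from 89341965 to 89356334 a 14.4-kb domain of 4 peaks reached a score of 143.22. On chromosome 15 from 102929508 to 102941397 an 11.9-kb domain of 2 peaks reached 584.73, and KO had 5.68 kb in mock and no peak in doxorubicin. The others were a 10.9-kb domain on chromosome 19 from 42359172 to 42370094 and a 10.4-kb domain on chromosome 16 from 8505716 to 8516138. Skipped numbers left room for an unlisted doxorubicin peak at each of the 5. The KO lists had less at them in doxorubicin than in mock at 4 of the 5 and about the same on chromosome 19 (1.20 and 1.19 kb). On chromosomes 3 and 16 this rested on a single weak KO mock peak each, with none in KO doxorubicin. These peaks were 1.17 kb with a score of 81.38 and 1.01 kb with 87.48, close to the lowest listed score.

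The longest gained domain was far longer than any other and had a different form. It lay on chromosome 11 from 96123453 to 96194928, 71.5 kb long, with 18 peaks that covered 60.5 kb and a highest score of 1161.35. The mock list had no peak in the 87.7 kb from 96121286 to 96208980. The mock peaks on either side were strong and long, 10.3 kb with a score of 1137.88 on the left and 11.3 kb with 1014.27 on the right, and their numbers, 3964 and 3965, were consecutive. No numbered mock peak can therefore lie in the stretch. The KO mock list covered 85.0 kb of it in 6 peaks, WT doxorubicin 64.0 kb in 20 and KO doxorubicin 46.8 kb in 25. WT mock was thus the sole list without a listed H3K27me3 peak there. H3K4me3 peaks in the stretch numbered 10 in WT mock and 13 in WT doxorubicin, and covered 28.5 and 29.3 kb. Whether the missing calls came from the cells, the library or the peak caller was not tested.

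The next 4 gained domains were 9.03 to 15.0 kb long, and their highest scores lay between 181.04 and 249.92. On chromosome 14 from 47053728 to 47068695 a 15.0-kb domain of 6 peaks reached 249.92, with no peak in the KO mock list and 8.82 kb with doxorubicin. It lay in the same megabase as the longer region on chromosome 14 given above. On chromosome 8 from 10790834 to 10805416 a 14.6-kb domain of 6 peaks reached 230.24 and stood 187666 bp from the nearest mock domain, where the KO lists had 2.89 kb (mock) and 7.91 kb (doxorubicin). On chromosome 8 from 82813749 to 82825638 the domain was 11.9 kb, and the KO lists had 1.05 and 6.43 kb. On chromosome 6 from 90983976 to 90993004 it was 9.03 kb, with 1.90 and 6.12 kb. In these 4 the KO libraries had the same order as WT, and in none of them was an H3K4me3 peak listed in any library. The mock list skipped 2, 8, 4 and 3 peak numbers there, in the order given, which left room for an unlisted mock peak at each.

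The longest domains found in both lists kept most of their covered length. On chromosome 19 from 44786050 to 44919726 the mock domain was 133.7 kb, and peaks covered 124.6 kb of it in mock and 110.9 kb in doxorubicin. On chromosome 2 from 74481072 to 74608107 a 127.0-kb domain had 122.9 kb covered in mock and 109.7 kb in doxorubicin, and held 13 H3K4me3 peaks in WT mock and 15 in WT doxorubicin. On chromosome 7 from 86636977 to 86764002 the covered lengths were 120.6 and 116.6 kb. All 3 were met by 2 doxorubicin domains. Mock covered them in 13 peaks each, and doxorubicin in 19, 24 and 19, so that the lists differed in how the peaks were divided more than in what they covered. The longest doxorubicin domains lay in the same places on chromosomes 15, 19 and 7, and on chromosome 11 from 77707855 to 77782289 (74.4 kb) and chromosome 1 from 74882040 to 74955620 (73.6 kb).

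The KO libraries give a readout that did not enter the choice of lost and gained domains. Of the lost domains 56.8% (55.1 to 58.4) were in neither KO list and 13.2% (12.1 to 14.4) in both. Of the gained domains these were 58.0% (56.3 to 59.8) and 12.6% (11.4 to 13.8). Kept domains were in both KO lists in 75.5% of mock and 73.1% of doxorubicin cases. The share listed in neither KO library was set by the shortest domains. Under 2 kb it was 65.7% of lost and 63.4% of gained domains, at 2 to 5 kb 37.1% and 25.7%, and at 5 to 10 kb 17.1% and 13.9%. Most lost and gained domains of 2 to 10 kb were therefore listed in at least 1 KO library.

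Where a lost or gained domain was found in just 1 KO list, it was more often the list of the same treatment. Lost domains were in KO mock alone in 16.9% (15.7 to 18.2) and in KO doxorubicin alone in 13.1% (12.0 to 14.3). Gained domains were in KO mock alone in 11.6% (10.5 to 12.8) and in KO doxorubicin alone in 17.8% (16.5 to 19.2). Among kept domains the 2 shares were closer, at 8.20% and 7.56% of mock and 8.82% and 8.00% of doxorubicin domains. The gap was wider among lost and gained domains of 2 to 5 kb, at 23.2% and 15.8% of 852 lost and 12.0% and 26.9% of 342 gained domains.

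**Figure D5:**
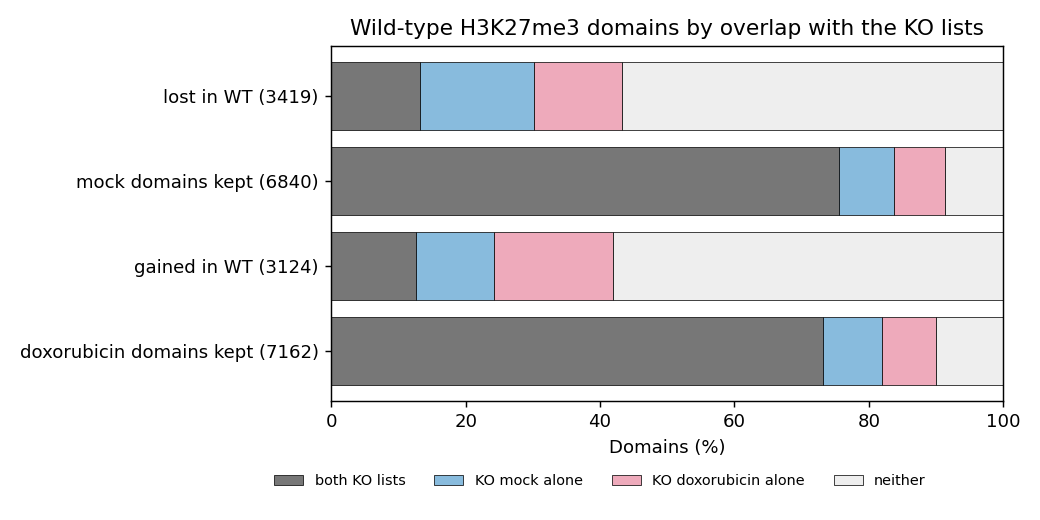
Wild-type H3K27me3 domains (percent of each group, horizontal axis) by overlap with the KO lists, for lost, kept mock, gained and kept doxorubicin domains, with the number of domains in brackets. More than 56% of the lost and gained domains overlapped neither KO list, and the KO mock part is the wider of the single-list parts for lost domains (16.9% against 13.1%) and the narrower for gained ones (11.6% against 17.8%).

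The same held for length in regions that both WT lists shared. In KO cells the median ratio of doxorubicin to mock length was 0.880 over the regions at least 2-fold shorter in WT (750 with a domain in both KO lists). It was 1.11 over those at least 2-fold longer (266) and 0.986 over all (5128). KO doxorubicin was the shorter in 52.8% of the 1120 regions, 38.01% of the 392 regions and 48.3% of all 6645.

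H3K4me3 was rarer at lost and gained domains than at kept ones. Of the lost domains 5.18% overlapped an H3K4me3 peak of WT mock and 5.64% one of WT doxorubicin, against 28.7% and 32.6% of kept mock domains. Of the gained domains these were 3.33% and 3.49%, against 26.3% and 30.1% of kept doxorubicin domains. Split domains did not share this: kept mock domains met by several doxorubicin domains had 39.3% and 43.1%. Kept doxorubicin domains met by several mock domains had 37.3% and 39.0%. Longer domains have more room for an H3K4me3 peak, and lost and gained domains stood below kept ones within length classes too. At 2 to 5 kb, 7.39% of lost and 22.7% of kept mock domains overlapped H3K4me3 of WT mock. For doxorubicin domains of that length and H3K4me3 of WT doxorubicin, the shares were 7.31% of gained and 27.9% of kept domains. At 5 to 10 kb they were 11.1% of lost and 35.2% of kept mock domains, and 6.94% of gained and 41.1% of kept doxorubicin domains. Of the 3419 lost domains, 3223 had no H3K4me3 peak in either WT list, 174 had one in both, 19 in doxorubicin alone and 3 in mock alone. Of the 3124 gained domains, 3004 had none, 93 had one in both, 16 in doxorubicin alone and 11 in mock alone.

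Along the genome, both conditions placed H3K27me3 in the same megabases. Over the 1734 windows of 1 Mb with a domain in either WT list, Pearson's r between mock and doxorubicin domain length was 0.977 and Spearman's rho 0.943. These values describe windows that share gene content and mappability. Doxorubicin length was the shorter in 68.4% of the windows. The largest differences were on chromosome 15 from 102000001 to 103000000 (342.6 kb in mock and 246.7 kb in doxorubicin), chromosome 5 from 112000001 to 113000000 (172.6 and 89.5 kb) and chromosome 11 from 95000001 to 96000000 (261.2 and 178.4 kb). The windows with more in doxorubicin were led by chromosome 14 from 47000001 to 48000000 (10.5 and 53.9 kb) and chromosome 8 from 10000001 to 11000000 (16.1 and 53.4 kb). The KO libraries had the same order in these 5 windows, with 279.0 and 207.2 kb, 95.3 and 68.8 kb, 194.8 and 167.7 kb, 15.5 and 79.7 kb, and 18.4 and 61.4 kb.

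This shared order was found beyond the leading windows. Of the 50 windows with the largest loss in WT, 40 (80%) were also shorter with doxorubicin in KO, with a KO median of -15.4 kb. Of the 50 with the largest gain, 38 (76%) were also longer in KO, with a KO median of 10.7 kb. Of all 1734 windows 44.6% were shorter and 52.0% longer in KO, with a median of 0.145 kb. The WT and KO comparisons share no library, and across windows their differences had a Pearson's r of 0.496 and a Spearman's rho of 0.333.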

How the data were processed

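Peak lists of 2 H3K27me3 ChIP-seq libraries, WT mock and WT doxorubicin, were compared, and the other 6 lists of the series (KO H3K27me3, and H3K4me3) were used beside them. The input libraries and reads were not analysed here. Per the submitters' processing notes, the tools were Bowtie 0.12.7 and MACS 1.4.2 and the build was mm9. The deposited score of a peak is, per the file headers, minus 10 times the log10 of its p-value. It was used to describe and group domains within a list. Per the labels' protocols, sonication of the fixed chromatin gave fragments of 300 to 500 bp. Read depth is unknown, since the lists hold no read counts.

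Peaks of a list with a gap under 3 kb were joined, and an overlap of 1 bp counted as shared. Printed coordinates are 1-based; the deposited starts were read as 0-based. A skipped peak number was taken to be a peak that was called and not listed. Changes of length in kept domains were measured over the region that joins overlapping domains of both lists. Regions were named by a rule: per category (lost, gained, most pieces, most merged, largest loss or gain of length, longest) the 5 at the top. The categories, lists and tests were chosen with earlier results of these data known. Planned gene lists were not used, because no mm9 annotation was at hand. The 6 interval rules were tested on simulated data, a list with known changes made from 3811 domains of the WT mock list, and all 6 gave back what was put in. Only domains far from their neighbours were used for it, so closely spaced domains were not tried. The check of skipped numbers did not count false positives. Intervals are exact (Clopper-Pearson) at 95%. Alternatives were other joining distances, a score minimum, lists of equal number and other overlap rules. Tables were handled with pandas 2.3.3 and numpy 2.4.6 in Python 3.11.15, intervals computed with scipy 1.17.1, and plots drawn with matplotlib 3.10.9.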

Additional observations from a re-analysis of the deposited data

Results flagged for a closer look

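Summed domain length and the named regions were screened for differences between mock and doxorubicin with opposite signs in WT and KO. The screen flagged 3 results. Regions with a small difference in either genotype were left out, so other results also had opposite signs. On chromosome 2 from 74481072 to 74608107, peaks covered 122.9 kb in WT mock and 109.7 kb in WT doxorubicin, but 78.8 and 100.5 kb in KO. Chromosomes were not screened, and chromosome 1 differed by -18.0% in WT and 6.76% in KO. These differences between WT and KO were not tested, since each condition had 1 library. Summed domain length differed by -8.10 Mb in WT and by 0.0486 Mb, or 0.116%, in KO. The sign in KO depended on the joined gaps: peaks alone covered 36.3 Mb in KO mock and 35.9 Mb with doxorubicin, the same order as the 48.0 and 39.0 Mb in WT. The domain on chromosome 11 from 96123453 to 96194928 had 60.5 kb more listed peak length with doxorubicin in WT, where mock had none, and a difference of -26.7 kb in KO. The domain on chromosome 11 from 84380254 to 84423711 had 7.64 kb more listed peak length in WT and a difference of -12.1 kb in KO. Its highest score was lower with doxorubicin in both genotypes.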

How the results depend on the processing

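No paired analysis was possible because each condition had 1 library, and for the same reason no replicate could be left out. The order of the conditions was the same under every alternative run: more mock domains lost than doxorubicin domains gained by share, shorter doxorubicin length, and more splitting than merging. The run with equal numbers of peaks left the mock list whole and cut the weakest doxorubicin peaks alone. It could therefore only shorten the doxorubicin length and raise the lost share, and says nothing further on the order of these. The sizes depended on the rules. Lost and gained shares were 35.4% and 29.3% without joining, 35.6% and 32.1% with joining under 1 kb, and 28.9% and 26.98% under 10 kb. They were 32.2% and 26.998% with scores of at least 100, 35.3% and 27.8% with equal numbers of peaks, 48.8% and 38.8% with an overlap of 50%, and 30.8% and 27.6% when a domain within 1 kb counted as shared. The length difference was -18.8% without joining, -17.6% and -11.3% with joining under 1 kb and 10 kb, -17.5% with scores of at least 100 and -18.9% with equal numbers. The share of mock length found in doxorubicin was 60.9%, 62.6% and 68.9% with no joining, 1 kb and 10 kb, and 63.5% with equal numbers. The split share depended most on joining, at 23.6% without it, 9.94% and 5.01% under 1 kb and 10 kb, and 5.12% with an overlap of 50%. The merged share was 8.88% without joining, 2.93% under 1 kb, 2.05% with scores of at least 100 and 1.57% with an overlap of 50%. Read depth, which limits weak peaks, is unknown.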

Other observations

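Each of chromosomes 1 to 19 and X had less H3K27me3 domain length in WT doxorubicin than in WT mock, with a median difference of -15.7%. The differences ranged from -27.8% on chromosome 16 and -23.6% on chromosome 18 to -9.48% on chromosome 13 and -2.69% on chromosome 14. Chromosome 14 was also where KO cells differed the most in the other direction, by 25.2%, while chromosome 16 was at -6.26% and chromosome 18 at 0.268% in KO. On chromosome 14 gained domains (144) outnumbered lost ones (128), and on chromosome 16 there were 76 gained and 111 lost. Chromosome X had 43 domains in mock and 45 in doxorubicin, with 0.186 and 0.148 Mb.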
